A study of Mus musculus with 2 samples.

Results

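Neurons of the mammillary body that express the neuropeptide neurotensin were described from single-cell RNA profiles of the newborn mouse hypothalamus. The members were 226 cells, 136 from the Sim1Het library and 90 from the Control library, of 5260 cells with at least 300 detected genes. They were selected on their own counts of unique molecular identifiers (UMIs, 1 per captured RNA molecule): at least 2 UMIs of Foxb1 and at least 2 UMIs of Nts. Foxb1 and Nts therefore chose the cells, and their levels are given below only as a description. The main comparison was with the 1306 other cells that had at least 2 Foxb1 UMIs (738 Sim1Het, 568 Control), called other Foxb1 cells. A second comparison used the 90 cells with at least 2 Nts UMIs but under 2 Foxb1 UMIs (50 Sim1Het, 40 Control), called Nts cells low in Foxb1.

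The cells came from hypothalami of CD-1 pups at postnatal day 1 to 4 and were sorted for tdTomato, a red reporter that stays on in cells, and in the descendants of cells, that expressed Sim1-Cre. Sim1Het pups (Sim1-Cre;tdTomato+/-;Sim1+/-) carried a heterozygous Sim1 mutation as well as the Cre and the reporter, and Control pups (Sim1-Cre;tdTomato+/-) carried the Cre and the reporter only. Each genotype gave 1 Drop-seq library from 6 pooled pups, so the genotypes have no replicate and no p-value is given for them. All cells here belong to the Sim1-Cre lineage, and mammillary cells outside it were not sampled. The sources used here do not say which part of Sim1 is lost, so the 3' counts of Sim1 do not check the genotype: Nts-positive Foxb1 cells held 41 Sim1 UMIs (100 CPM) in the Sim1Het library and 19 (81.5 CPM) in the Control library. CPM are counts per 1000000 UMIs of the same group of cells.

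The mammillary body lies at the back of the hypothalamus, receives hippocampal input through the fornix and projects to the anterior thalamus through the mammillothalamic tract. Foxb1 is a forkhead transcription factor needed for the formation of the mammillary nuclei and their tract, and most mammillary projection neurons use glutamate. Nts encodes neurotensin, a secreted peptide that acts through the receptors Ntsr1 and Ntsr2 and also binds the sorting receptor Sort1. In these counts Nts-positive Foxb1 cells differed from other Foxb1 cells by higher levels of the secreted signals Tac1, Bdnf and Cartpt. The calmodulin regulator Pcp4 and the adhesion molecule Alcam were higher too. DESeq2, a second test described below, did not call Tac1 or Cartpt. Tac1 was not particular to these cells. It was at 383 CPM in Sim1Het and 768 CPM in Control Nts-positive Foxb1 cells, against 542 and 570 CPM in Nts cells low in Foxb1. The regional transcription factors Emx2, Ebf3, Nkx2-4 and Fezf2 were nearly absent from the Nts-positive Foxb1 cells. Most other Foxb1 cells had no Emx2 UMI either: among those with 0 Nts UMIs, 7.13% in the Sim1Het and 8.94% in the Control library had 1 or more.

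The sequence before the start of Nts is shown because Nts defines the cells. It is the 182 bases that lie before the gene start in both RefSeq and GENCODE M21, taken from RefSeq on GRCm38.p6 (the build that mm10 names), 5′ to 3′ on the strand of the gene, with capitals marking a motif match.
Nts (chr10:102490487-102490668, minus strand): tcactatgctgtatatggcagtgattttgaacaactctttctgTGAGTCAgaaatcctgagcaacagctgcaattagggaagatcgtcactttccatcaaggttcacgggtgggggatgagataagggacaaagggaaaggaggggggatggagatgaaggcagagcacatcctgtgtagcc

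This stretch was searched on both strands for 4 motifs. The AP-1 site was searched as TGANTCA, where N stands for any base. It was found once, as TGAGTCA, starting 207 bases before the RefSeq gene start, at -207. Of the stretches at the same distance before 32851 gene starts, 4.96% held a match to TGANTCA, with any base at N. The cyclic AMP response element TGACGTCA was not in the Nts stretch, and was in 0.609% of all such stretches. The homeodomain core TAATTA (3.88% of all stretches) was not in it either. Nor was the TATA box, searched as TATAAA (8.45%). The stretch stops short of the RefSeq gene start, and the bases nearest to that start were not searched. These absences therefore hold for the printed bases only and do not show whether the motifs lie closer to the RefSeq start. A match is a description of letters and was not tested as a binding site.

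The rule itself fixes much of the Nts and Foxb1 levels, which follow as a description. Nts-positive Foxb1 cells held 799 of the 1229 Nts UMIs of the Sim1Het library (65.0%) and 580 of the 813 Nts UMIs of the Control library (71.3%). The median Nts-positive Foxb1 cell had 4 Nts UMIs in each library, and the highest had 25 in the Sim1Het and 23 in the Control library. Just inside the threshold, 28 Sim1Het and 19 Control cells had 2 Nts UMIs, and just outside it 51 Sim1Het and 31 Control cells had 1. Among cells with at least 2 Nts UMIs, 73.1% (136 of 186) in the Sim1Het library and 69.2% (90 of 130) in the Control library also had at least 2 Foxb1 UMIs. Foxb1 was at 1855 and 2021 CPM in the Nts-positive Foxb1 cells of the Sim1Het and Control libraries, and at 2077 and 2104 CPM in the other Foxb1 cells. Nts lies on chromosome 10 from 102481756 to 102490486 (minus strand) and Foxb1 on chromosome 9 from 69757710 to 69760940 (minus strand), both protein-coding genes in mm10.

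The Sim1Het library had 2476 barcodes with 5397693 UMIs and the Control library 2807 with 6525080, and 0 barcode sequences occurred in both. The median Nts-positive Foxb1 cell had 2616 UMIs in the Sim1Het and 2265 in the Control library, against 2015.5 and 1759 in other Foxb1 cells. A rule that asks for 2 UMIs favours deeper cells, so shares of cells with a UMI are given after thinning each cell to 1231 UMIs, with the unthinned share beside them. Thinning left 114 Sim1Het and 83 Control Nts-positive Foxb1 cells and 553 and 434 other Foxb1 cells. Doublets were not called or removed, and their part in the results was not tested. Leaving out the 5% of cells with most UMIs turned the direction of none of the 29 named genes. That cut does not identify doublets, and most of these genes were picked for clear differences in both libraries.

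Glutamatergic identity was plain in these cells. Slc17a6, the vesicular glutamate transporter, was at 1013 CPM in Sim1Het and 828 CPM in Control Nts-positive Foxb1 cells, and 83.8% and 78.9% of the cells had a UMI (74.6% and 55.4% after thinning). The GABA genes Slc32a1, Gad1 and Gad2 had 0 UMIs in both libraries, which allows up to 7.32 CPM in the Sim1Het and 12.9 CPM in the Control library (3 UMIs). The mammillary LIM-homeobox gene Lhx1 had 376 UMIs (918 CPM) in Sim1Het and 166 (712 CPM) in Control Nts-positive Foxb1 cells, against 846 and 731 CPM in other Foxb1 cells. Its close relative Lhx5 had 46 and 28 UMIs in the Nts-positive Foxb1 cells. Sim2, a relative of Sim1, had 0 UMIs in Nts-positive Foxb1 cells of either library. UMIs of Lhx1, Lhx5 and Sim1 were thus found along with Foxb1, while Sim2 was below the same limits of 7.32 and 12.9 CPM. In the edgeR tests below, neither Lhx5 nor Sim1 was called against other Foxb1 cells or against Nts cells low in Foxb1. Of 26 listed mammillary factors 14 were measured against other Foxb1 cells, with 5 lower and 1 higher, beside 0.484% of all genes each way.

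Nts-positive Foxb1 cells made up 15.6% of the Foxb1 cells in the Sim1Het library (136 of 874, Clopper-Pearson 95% interval 13.2% to 18.1%) and 13.7% in the Control library (90 of 658, 11.1% to 16.5%). The ratio of shares was 1.14 (0.865 to 1.5), an interval that holds 1. Of all cells, they made up 5.54% in the Sim1Het library (4.67% to 6.52%) and 3.21% in the Control library (2.59% to 3.93%), a ratio of 1.73 (1.31 to 2.28). The difference over all cells thus went with the share of all Foxb1 cells, 874 of 2454 in the Sim1Het and 658 of 2806 in the Control library. These intervals, like all intervals below, cover counting error only and not the spread between animals or preparations.

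Nts-positive Foxb1 cells were compared with other Foxb1 cells by summing UMIs per library and class and fitting all 10745 genes with at least 30 UMIs with edgeR's quasi-likelihood test, with library as a block and Benjamini-Hochberg adjustment. At an adjusted p under 0.05, 52 genes were higher (0.484% of those tested) and 52 lower (0.484%). The fit has 1 residual degree of freedom, the 2 libraries also differ in genotype, and the spread was shared over genes, so the p-values mostly reflect counting error. DESeq2 on the same sums called only 3 higher (Alcam, Bdnf and Pcp4) and 1 lower (Ap1s2), and edgeR without the library block called 3 and 1 (Alcam, Rprm and Tac1 higher, Ap1s2 lower). The 29 genes named by the fixed rule and as markers kept their direction in each library alone and under every alternative tried. The rule itself asked for an edgeR call and the same direction in both libraries. This agreement was therefore largely fixed in advance and is not independent support.

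**Figure D1:**
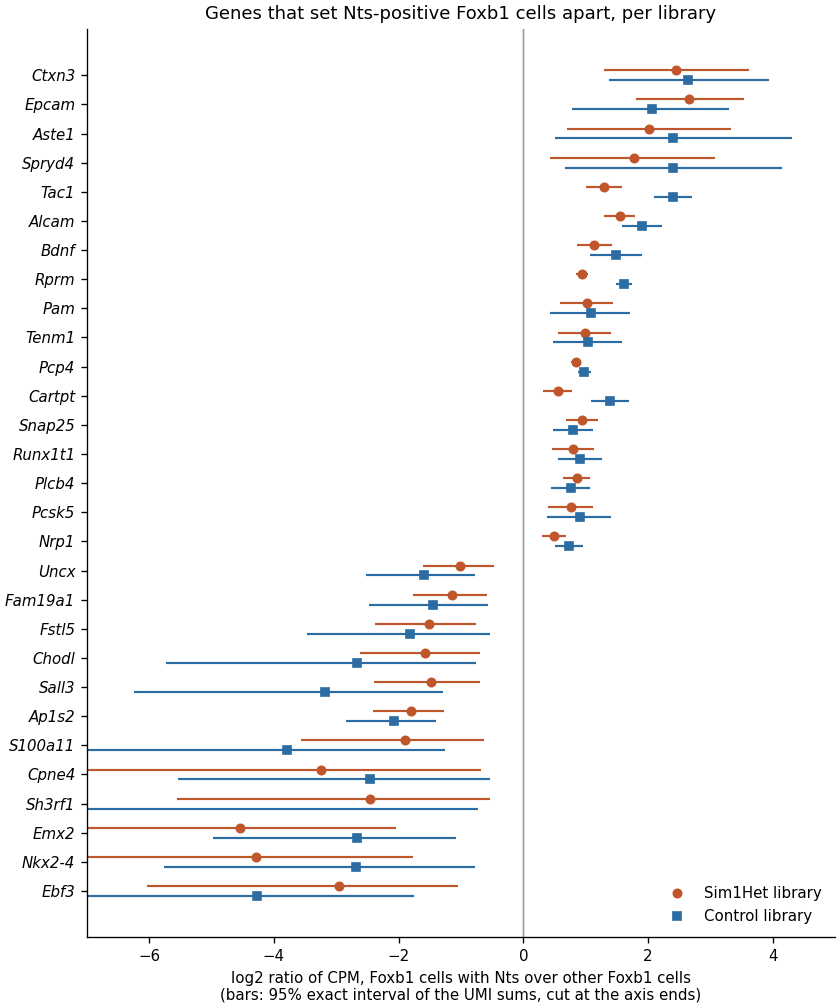
Log2 ratio of CPM in Nts-positive Foxb1 cells over other Foxb1 cells for the 29 named genes, in the Sim1Het (circles) and Control (squares) library, with 95% exact intervals of the UMI sums. Genes run from the highest to the lowest fitted ratio, Sh3rf1 has no Control point because it had 0 UMIs there, and Tac1, Rprm and Cartpt differ most between the libraries among the higher genes.

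Among secreted peptides and factors, Tac1, which encodes the tachykinins substance P and neurokinin A, had 157 UMIs (383 CPM) in Sim1Het and 179 (768 CPM) in Control Nts-positive Foxb1 cells, against 284 (156 CPM) and 179 (145 CPM) in other Foxb1 cells. It was higher in both libraries, with a fitted log2 ratio of 1.84 ± 0.13 (SE, adjusted p 9.8e-40), but by 1.29 in the Sim1Het and 2.40 in the Control library, and the 95% intervals (1.00 to 1.58 and 2.10 to 2.71) do not overlap. A Tac1 UMI was found after thinning in 22.8% of Sim1Het and 36.1% of Control Nts-positive Foxb1 cells, against 11.8% and 11.5% of other Foxb1 cells (unthinned 30.9% and 46.7%, against 16.9% and 15.8%). In cells rich in glial genes, taken as cells that should lack neuronal peptides, no cell had a Tac1 UMI (0 of 43 Sim1Het and 0 of 31 Control cells, with medians of 1002 and 1260 UMIs). Non-detection at this depth does not show that a cell lacks Tac1.

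Bdnf, the brain-derived neurotrophic factor, had 164 UMIs (400 CPM) in Sim1Het and 77 (330 CPM) in Control Nts-positive Foxb1 cells, against 330 (182 CPM) and 145 (118 CPM) in other Foxb1 cells, a fitted log2 ratio of 1.29 ± 0.15 (adjusted p 1.7e-15). After thinning, 38.6% and 31.3% of Nts-positive Foxb1 cells had a Bdnf UMI, against 17.0% and 12.4% of other Foxb1 cells. Cartpt, the precursor of the feeding-related peptide CART, had 201 UMIs (491 CPM) and 134 (575 CPM), against 609 (335 CPM) and 271 (220 CPM), a fitted log2 ratio of 0.92 ± 0.12 (adjusted p 7.4e-11). Both genes were higher in each library, and for Cartpt by more in the Control library (1.39, 95% interval 1.08 to 1.69) than in the Sim1Het library (0.55, 0.31 to 0.78). With DESeq2 the call was lost for Tac1 (adjusted p 0.41) and Cartpt (adjusted p 0.19).

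Of the 30 neuropeptides and neuronal factors listed, 16 were measured in this comparison, of which 3 were higher (Tac1, Bdnf and Cartpt) and 3 lower, beside 0.484% of all genes each way, with a median log2 ratio of -0.07 against -0.003 over all genes. The lower ones were Gal, the galanin gene, at 46.4 and 38.6 CPM in Sim1Het and Control Nts-positive Foxb1 cells against 83.6 and 152 CPM in other Foxb1 cells, Cbln2, a synapse organiser of the cerebellin family, and Avp. The Avp difference rested on 1 cell: of 875 Avp UMIs in Control other Foxb1 cells, 745 were in a single cell, and without each gene's highest cell the log2 ratio was -0.04 (adjusted p 0.989). Cck, the cholecystokinin gene, was at 1174 and 1686 CPM in Nts-positive Foxb1 cells and 1176 and 1486 CPM in other Foxb1 cells, a log2 ratio of 0.10 ± 0.09 that did not pass the test. Tac1, Bdnf and Cartpt were chosen as markers with earlier results of these data known, so their count is not independent support.

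UMIs of several of these genes were found in part of the cells. At least 1 UMI of each of Tac1, Cartpt and Bdnf was found in 16 of 136 Sim1Het (11.8%) and 15 of 90 Control (16.7%) Nts-positive Foxb1 cells, against 19 of 738 (2.57%) and 6 of 568 (1.06%) other Foxb1 cells. None of these 3 genes had a UMI in 18.4% and 13.3% of Nts-positive Foxb1 cells, against 43.6% and 55.1% of other Foxb1 cells. Cartpt with Bdnf was the most frequent pair, in 31.6% and 36.7% of Nts-positive Foxb1 cells, and Tac1 with Cartpt was found in 17.6% and 27.8%. These shares are unthinned, the Nts-positive cells were deeper (medians of 2616 and 2265 UMIs against 2015.5 and 1759), and no co-detection beyond the single-gene shares was tested. Among cells rich in glial genes, a Cartpt UMI was in 2.33% of Sim1Het and 9.68% of Control cells, and a Bdnf UMI in 2.33% and 3.23%.

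**Figure D2:**
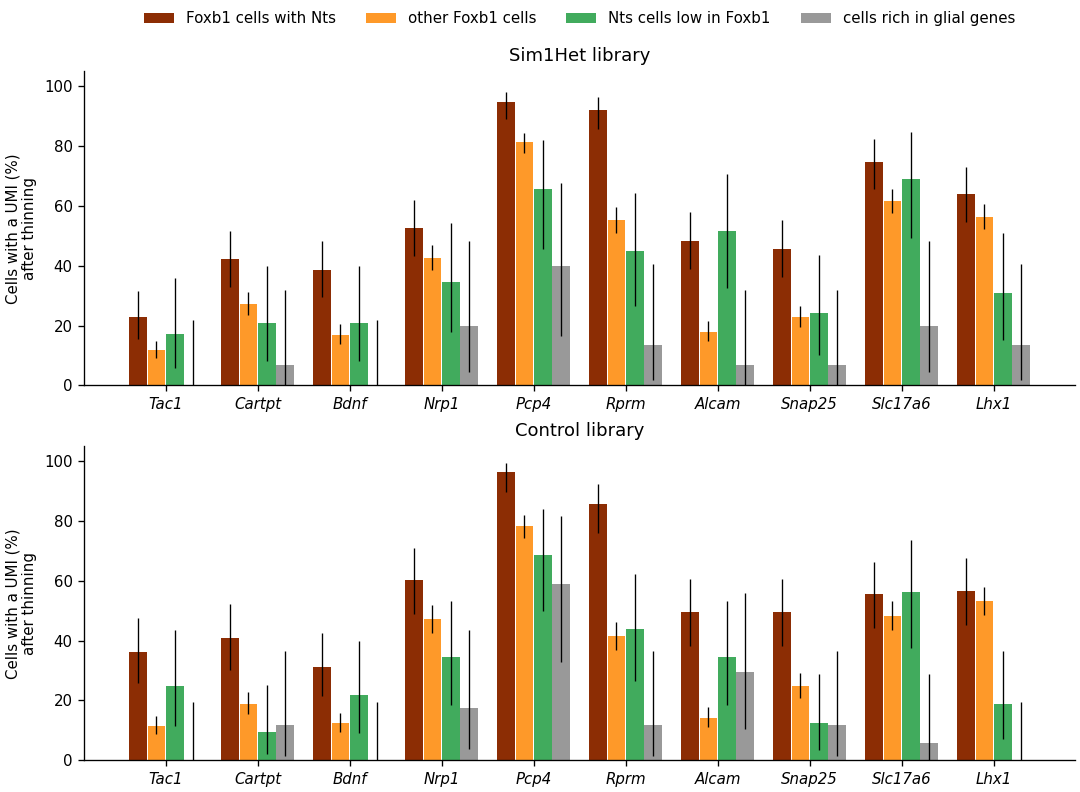
Share of cells with at least 1 UMI after thinning to 1231 UMIs, for 10 genes in 4 groups of cells of the Sim1Het (top) and Control (bottom) library, with Clopper-Pearson 95% intervals. Pcp4 and Rprm were found in over 80% of Nts-positive Foxb1 cells, and Tac1 in 22.8% of Sim1Het and 36.1% of Control cells. The group rich in glial genes holds only 15 Sim1Het and 17 Control cells after thinning.

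Pcp4, a small protein that regulates calmodulin, was the most strongly counted of the marker genes in these cells. It had 1756 UMIs (4287 CPM) in Sim1Het and 1164 (4995 CPM) in Control Nts-positive Foxb1 cells, against 4343 (2390 CPM) and 3121 (2529 CPM) in other Foxb1 cells, a fitted log2 ratio of 0.92 ± 0.07 (adjusted p 4.7e-32). The libraries gave 0.84 and 0.98, close to each other. After thinning, 94.7% and 96.4% of Nts-positive Foxb1 cells had a Pcp4 UMI, against 81.2% and 78.3% of other Foxb1 cells, and 40.0% and 58.8% of cells rich in glial genes. Only 15 Sim1Het and 17 Control cells rich in glial genes were left after thinning, so their shares are imprecise. Of the 27 calcium-binding and calmodulin genes listed, 25 were measured, with Pcp4 higher and Gap43, a calmodulin-binding growth cone protein, lower (3076 and 2935 CPM against 3796 and 4227 CPM, log2 ratio -0.40 ± 0.07, adjusted p 5e-05). The other 23 did not pass the test, and the list's median log2 ratio was 0.02. Over all genes 0.484% were called each way.

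Among enzymes and carriers of the peptide pathway, Pam, the enzyme that adds the C-terminal amide found on substance P, had 69 UMIs (168 CPM) in Sim1Het and 30 (129 CPM) in Control Nts-positive Foxb1 cells, against 151 (83.1 CPM) and 75 (60.8 CPM) in other Foxb1 cells. Its fitted log2 ratio was 1.06 ± 0.21 (adjusted p 0.00013). Scg2, a secretogranin, was lower in the fit (-0.40 ± 0.11, adjusted p 0.024), with 710 CPM against 735 CPM in the Sim1Het and 365 CPM against 743 CPM in the Control library, and the interval of the Sim1Het library alone holds 0 (-0.24 to 0.14). All 17 processing genes listed were measured, 1 was higher and 1 lower, beside 0.484% of all genes each way, and their median log2 ratio was 0.12. Pcsk5, a proprotein convertase outside that list, was higher at 94 UMIs (229 CPM) and 45 (193 CPM) against 135 and 103 CPM in other Foxb1 cells. Of 25 peptide receptor genes 10 were measured and none passed the test in edgeR, where 773 of all 10745 genes had an unadjusted p under 0.05, or in DESeq2, where 97 did. The neurotensin receptor Ntsr1 had 6 UMIs in each library's Nts-positive Foxb1 cells, and Ntsr2 had 0 in both, against 17 and 13 UMIs in the cells rich in glial genes.

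Among cell adhesion genes, Alcam was higher by the most of the well-counted ones. Alcam, an immunoglobulin-family adhesion molecule of axons, had 234 UMIs (571 CPM) in Sim1Het and 139 (596 CPM) in Control Nts-positive Foxb1 cells, against 356 (196 CPM) and 197 (160 CPM) in other Foxb1 cells, a fitted log2 ratio of 1.71 ± 0.13 (adjusted p 1.8e-37). It was called by every method and alternative used. Epcam, better known as an epithelial adhesion molecule, had 30 UMIs (73.2 CPM) and 11 (47.2 CPM), against 21 (11.6 CPM) and 14 (11.3 CPM), a log2 ratio of 2.45 ± 0.38 (adjusted p 1.1e-07). In both genes the groups were apart in each library.

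Among 33 listed cadherins and adhesion genes, 31 were measured, 3 were higher (Tenm1, Lrrtm3 and Ntm) and 1 was lower (Tenm3). These counts stand beside 0.484% of all genes each way, and the list's median log2 ratio was 0.05. The teneurins, transmembrane proteins that match partner neurons, moved in opposite directions: Tenm1 was at 173 and 172 CPM in Sim1Het and Control Nts-positive Foxb1 cells against 87.5 and 83.5 CPM in other Foxb1 cells, and Tenm3 at 31.7 and 17.2 CPM against 117 and 54.3 CPM. Lrrtm3, a postsynaptic organiser, was at 103 and 47.2 CPM against 31.9 and 21.9 CPM.

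Nrp1, the neuropilin co-receptor of class 3 semaphorins, had 294 UMIs (718 CPM) in Sim1Het and 214 (918 CPM) in Control Nts-positive Foxb1 cells, against 927 (510 CPM) and 680 (551 CPM) in other Foxb1 cells, a log2 ratio of 0.62 ± 0.10 (adjusted p 1.6e-06, and 0.68 with DESeq2). Of 49 listed guidance genes 39 were measured. Nrp1 and the ephrin receptor Epha7 were higher (Epha7 205 and 266 CPM against 159 and 137 CPM), and Epha4 was lower (129 and 103 CPM against 231 and 151 CPM). Epha7 differed more in the Control library and Epha4 more in the Sim1Het library. These 2 higher and 1 lower stand beside 0.484% of all genes each way, and the list's median log2 ratio was -0.15.

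A few synaptic genes were higher. Snap25, a SNARE protein of vesicle release, had 178 UMIs (435 CPM) in Sim1Het and 113 (485 CPM) in Control Nts-positive Foxb1 cells, against 410 (226 CPM) and 343 (278 CPM) in other Foxb1 cells, a log2 ratio of 0.90 ± 0.13 (adjusted p 2.1e-09). It and the synapsin Syn2 were the 2 of 27 measured release genes that passed the test, with 0 lower. Of 18 measured glutamate genes 3 were higher and 0 lower: the AMPA receptor subunits Gria3 (107 and 142 CPM against 64.4 and 46.2 CPM) and Gria2 (2773 and 2888 CPM against 2644 and 1896 CPM) and the kainate receptor subunit Grik1 (159 and 68.7 CPM against 78.7 and 60.0 CPM). Gria2 differed mainly in the Control library and Grik1 mainly in the Sim1Het library. Gria3 lost its call after thinning (adjusted p 0.59). The medians of the 2 lists were 0.05 and 0.28 against -0.003 over all genes, and 0.484% of all genes were called each way.

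Among 43 listed ion channel genes, 36 were measured and only Cacna2d3, an auxiliary calcium channel subunit, passed the test, with 0 UMIs in Sim1Het and 1 in Control Nts-positive Foxb1 cells against 20.9 and 21.1 CPM in other Foxb1 cells. Of 19 measured young-neuron genes only Nfix passed, with 0 UMIs in the Nts-positive Foxb1 cells of both libraries against 14.3 and 16.2 CPM. Of 12 measured immediate early and stress genes none passed edgeR or DESeq2. The edgeR test called 0.484% of all genes each way.

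Several regional transcription factors were lower. Emx2, a homeobox gene, had 1 UMI in Sim1Het and 3 in Control Nts-positive Foxb1 cells, against 104 (57.2 CPM) and 101 (81.9 CPM) in other Foxb1 cells. Ebf3, of the early B-cell factor family, had 2 and 1 against 69 (38.0 CPM) and 102 (82.7 CPM). Nkx2-4, a homeobox gene of the ventral forebrain, had 1 and 2 against 87 (47.9 CPM) and 68 (55.1 CPM). The fitted log2 ratios were -3.37 ± 0.50, -3.49 ± 0.57 and -3.38 ± 0.58 (adjusted p 1.9e-08, 5.9e-07 and 4e-06), and with so few UMIs in the Nts-positive cells they are imprecise. Emx2, Ebf3, Nkx2-4 and Fezf2 were all leading genes of cluster 4, described below, which held 0 Nts-positive cells among 208 Foxb1 cells. Among Foxb1 cells with 0 Nts UMIs, only 7.13% in the Sim1Het and 8.94% in the Control library had an Emx2 UMI.

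Uncx, a homeobox gene of the posterior hypothalamus, had 30 UMIs (73.2 CPM) and 13 (55.8 CPM) against 147 and 168 CPM in other Foxb1 cells, and Hopx, an atypical homeodomain protein, had 43.9 and 73.0 CPM against 157 and 121 CPM. Sall3, a zinc finger factor, had 34.2 and 8.58 CPM against 95.7 and 77.8 CPM. Of 26 listed mammillary factors 14 were measured, and 5 were lower (Emx2, Nkx2-4, Hopx, Uncx and Fezf2), beside 0.484% of all genes each way. The only one higher was Rprm, a cell-cycle arrest gene of the p53 pathway, with 1191 UMIs (2908 CPM) and 764 (3279 CPM) in Sim1Het and Control Nts-positive Foxb1 cells against 1509 and 1070 CPM in other Foxb1 cells (log2 ratio 1.28 ± 0.08, adjusted p 1.9e-52, and 0.13 with DESeq2). The list's median was 0.11, opposite in sign to most of its calls.

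Ap1s2, a subunit of the AP-1 adaptor of vesicle sorting, was the clearest lower gene. It had 29 UMIs (70.8 CPM) in Sim1Het and 18 (77.2 CPM) in Control Nts-positive Foxb1 cells, against 451 (248 CPM) and 401 (325 CPM) in other Foxb1 cells, a log2 ratio of -1.90 ± 0.20 (adjusted p 8.3e-19). The groups were apart in both libraries, and DESeq2 called it too. Fam19a1, Fstl5 and Chodl, all of the secreted or lectin type, and the calcium-binding S100a11 and Cpne4 and the scaffold protein Sh3rf1 were also lower in both libraries, with fitted log2 ratios between -3.06 and -1.23.

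The remaining higher genes named by the rule were Ctxn3, a small membrane protein (16 and 13 UMIs against 13 and 11 in the larger group, log2 ratio 2.53 ± 0.46), Runx1t1, a transcriptional corepressor (254 and 395 CPM against 146 and 209 CPM), Plcb4, a phospholipase C (632 and 498 CPM against 349 and 293 CPM), and the sparsely counted Aste1 and Spryd4. Aste1 had 11 and 6 UMIs and Spryd4 10 and 7 in Nts-positive Foxb1 cells.

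Markers of other cell types were present at differing levels. Microglial, endothelial, fibroblast, ependymal and erythrocyte lists summed to 3 UMIs or fewer each in either library's Nts-positive Foxb1 cells. The 12 astrocyte and radial glia genes summed to 286 CPM in Sim1Het and 206 CPM in Control Nts-positive Foxb1 cells, against 272 and 327 CPM in other Foxb1 cells, and the 7 oligodendrocyte genes to 110 and 64.4 CPM against 52.8 and 51.1 CPM. The oligodendrocyte sum of the Sim1Het Nts-positive cells was thus above that of other Foxb1 cells, with Mbp its most abundant gene, and its part in the results was not tested. Mbp had a log2 ratio of 0.96 ± 0.37 that did not pass the test. Of the 12 glial genes 3 and 8 were at 0. Pmch, of the lateral hypothalamus, was lower (10 and 4 UMIs against 74 and 112).

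The pituitary hormone gene Gh passed the class test as higher although it had 0 UMIs in every Sim1Het cell compared. Of its 177 UMIs in Control Nts-positive Foxb1 cells, 128 were in 1 cell, and without each gene's highest cell its log2 ratio was 0.33 (adjusted p 0.891). Gh UMIs were also present in 38.7% of Control cells rich in glial genes (median 1260 UMIs), close to the 42.2% in Control Nts-positive Foxb1 cells (median 2265 UMIs). These shares are unthinned. A Gh UMI was thus not particular to the Nts-positive cells, and its source was not tested.

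Levels of several genes followed the number of Nts UMIs in the cell, which is given as a description with no test since Nts set the classes and median depth also rose, to 3493 and 2779.5 UMIs in cells with 10 or more Nts UMIs. Pcp4 was at 2328 CPM in Sim1Het and 2837 CPM in Control cells with 2 Nts UMIs, near the 2366 and 2530 CPM of cells with 0, and at 5061 and 5355 CPM in cells with 3 to 4. Ap1s2 was at 225 and 235 CPM in cells with 2 Nts UMIs and at 39.9 and 52.2 CPM in cells with 3 to 4. For both genes, the cells with exactly 2 Nts UMIs were closer to cells without Nts than to cells with 3 or more.

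Tac1 was at 293 and 384 CPM in cells with 2 Nts UMIs, 260 and 226 CPM with 3 to 4, 340 and 612 CPM with 5 to 9, and 717 and 1605 CPM with 10 or more. It was thus highest in the cells with most Nts in both libraries. Of those cells, 54.5% of 22 in the Sim1Het and 77.3% of 22 in the Control library had a Tac1 UMI. Cartpt did not follow Nts in the same way: it was at 440 and 576 CPM with 2 Nts UMIs and at 581 and 602 CPM with 10 or more, and Sim1Het cells with 1 Nts UMI already had 569 CPM.

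**Figure D3:**
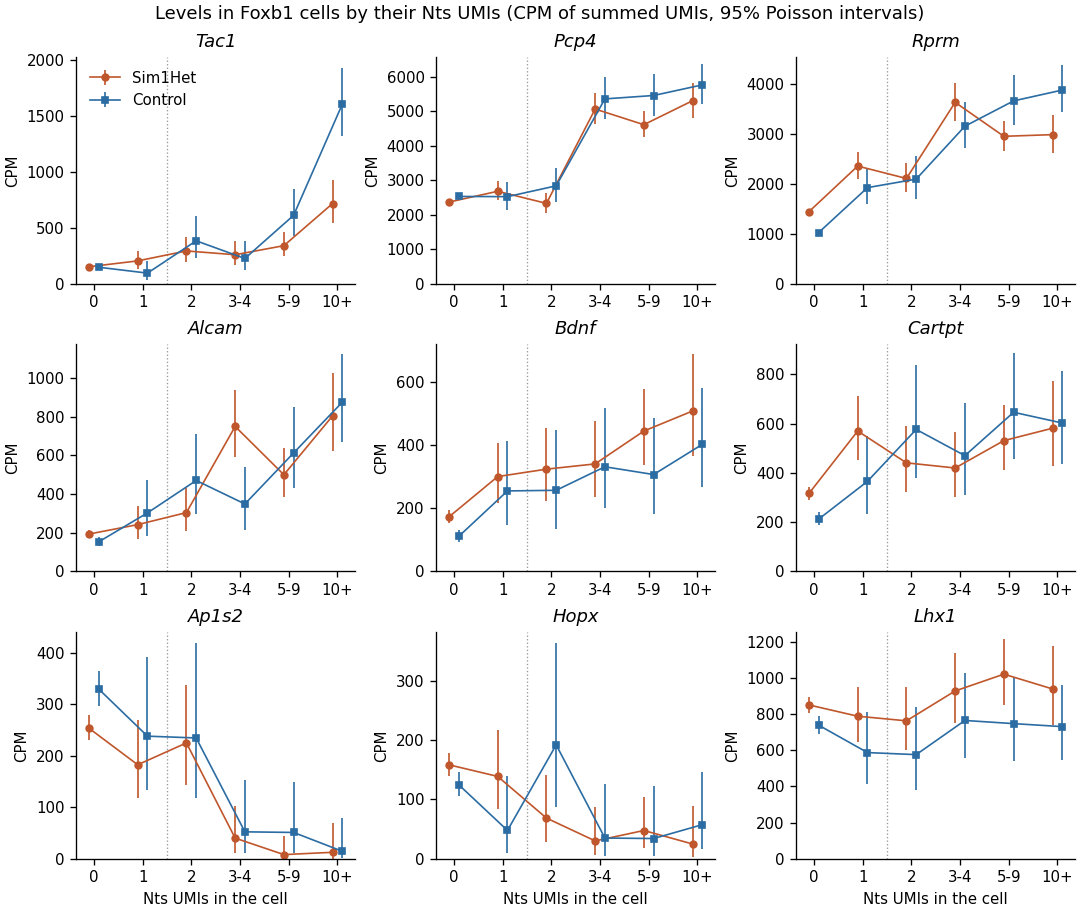
CPM of 9 genes in Foxb1 cells grouped by their Nts UMIs, with exact Poisson 95% intervals, for the Sim1Het (circles) and Control (squares) library. The dotted line marks the threshold of 2 Nts UMIs, Pcp4 steps up and Ap1s2 steps down between 2 and 3 Nts UMIs, and Tac1 is highest in cells with 10 or more.

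Clustering of all 1532 Foxb1 cells without Foxb1 and Nts gave 7 clusters, which were left unnamed. Cluster 7, led by Lrrtm3, Smyd1, Alcam, Tac1 and Grik1, held 94 of the 226 Nts-positive cells (41.6%) in 142 cells, and Nts-positive cells made up 65.4% of it in the Sim1Het library (68 of 104) and 68.4% in the Control library (26 of 38). Cluster 4, led by Fezf2, Emx2 and Ebf3, held 0 of 208 cells (0 of 85 and 0 of 123, exact upper bounds of 4.25% and 2.95%). The other 5 clusters held Nts-positive cells at 4.31% to 19.7% in the Sim1Het and 7.78% to 16.5% in the Control library. Cluster 7 took 50% of the Sim1Het and 28.9% of the Control Nts-positive cells, and cluster 2, led by Npy, Myo5b and Hopx, took 10.3% and 25.6%, so that the cells of the 2 libraries were spread differently over the clusters. Most Nts-positive cells lay outside cluster 7.

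**Figure D4:**
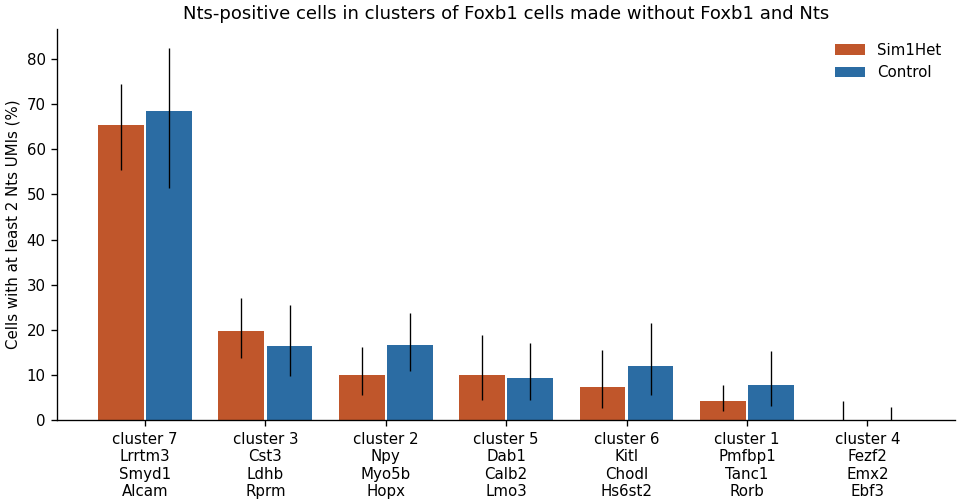
Percentage of cells with at least 2 Nts UMIs in each of 7 clusters of Foxb1 cells, Sim1Het left and Control right, with Clopper-Pearson 95% intervals. Cluster 7 stands apart at 65.4% and 68.4%, and cluster 4 is at 0 in both libraries.

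Against Nts cells low in Foxb1, 44 genes were higher (0.804% of 5472 tested) and 63 lower (1.15%) in the same edgeR test, and DESeq2 called 6 and 2. Mammillary genes were among the higher ones: Rprm at 2908 and 3279 CPM in Sim1Het and Control Nts-positive Foxb1 cells against 990 and 1090 CPM, Lhx1 at 918 and 712 CPM against 396 and 290 CPM, and its antisense neighbour Lhx1os at 1035 and 978 CPM against 286 and 310 CPM, which counts of unstated strand may not separate from Lhx1. Nkx2-1, a ventral forebrain homeobox gene, was higher at 186 and 219 CPM against 51.3 and 80.0 CPM, and Otp, a homeobox gene of paraventricular neurons, lower at 22.0 and 25.7 CPM against 169 and 70.0 CPM. Of 26 listed mammillary factors 10 were measured, 3 higher (Rprm, Lhx1 and Nkx2-1) and 1 lower (Otp).

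Of 12 measured neuropeptides and factors, 4 were higher in this comparison (Cartpt, Cck, Bdnf and Npy) and 2 lower (Sst and Cbln2). Over all genes 0.804% were called higher and 1.15% lower. Cartpt had 201 UMIs (491 CPM) and 134 (575 CPM) against 14 (103 CPM) and 13 (130 CPM), a log2 ratio of 2.19 ± 0.27 (adjusted p 2.3e-13), and Cck 1174 and 1686 CPM against 410 and 560 CPM (1.54 ± 0.15, adjusted p 3.4e-20). Bdnf was higher in the fit (1.07 ± 0.26, adjusted p 0.004), by 1.77 (95% interval 1.03 to 2.61) in the Sim1Het and by 0.40 (-0.27 to 1.12) in the Control library. Tac1 did not pass the test (-0.05 ± 0.18, adjusted p 0.97) and had 383 and 768 CPM in Nts-positive Foxb1 cells against 542 and 570 CPM, with log2 ratios of -0.50 (-0.91 to -0.08) and 0.43 (-0.01 to 0.89).

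Pcp4 (4287 and 4995 CPM against 1774 and 1990 CPM), Nrp1 (718 and 918 CPM against 330 and 370 CPM) and the diacylglycerol kinase Dgkb (581 and 421 CPM against 213 and 130 CPM) were higher as well. Npy had 20 and 38 UMIs against 0 and 2 (adjusted p 0.00016). The lower genes were led by the zinc finger factor Zic1 (2 and 3 UMIs against 13 and 15), the calmodulin-binding Nrgn (6 and 5 against 14 and 17) and the imprinted Peg10 (9 and 5 against 17 and 20). Calb2, the calretinin gene, had 171 and 94.4 CPM against 396 and 570 CPM. Sst, the somatostatin gene, was lower in the fit, with 2 and 3 UMIs against 3 and 55, and the interval of the Sim1Het library alone holds 0 (-2.17, -5.75 to 0.96). Nap1l5, Rab3c, Scg2 and Acot7 were lower in both libraries, with fitted log2 ratios of -1.23, -1.65, -1.15 and -1.37.

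Within the Nts-positive Foxb1 cells, Sim1Het was compared with Control over the 4381 genes whose UMIs in the 2 libraries summed to 30 or more, as log2 ratios of CPM with a pseudocount of 1 UMI. At least 1.5-fold differences were found in 518 genes (11.8%) higher and 383 (8.74%) lower in the Sim1Het library, with a median log2 ratio of 0.03. These counts compare 2 libraries and have no test. Of 167 processed pseudogenes 74 were lower and 11 higher, at a median of -0.47, and 4 of 10 mitochondrial genes were lower and 0 higher. The other Foxb1 cells, from the same libraries, had a median of -0.41 for the pseudogenes. The mitochondrial genes had medians of -0.56 in Nts-positive and -0.25 in other Foxb1 cells.

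Tac1 had 157 UMIs (383 CPM) in the Sim1Het and 179 (768 CPM) in the Control Nts-positive Foxb1 cells, a log2 ratio of -1.002 (95% interval -1.32 to -0.69). In other Foxb1 cells it had 284 (156 CPM) and 179 (145 CPM), a ratio of 0.10 (-0.17 to 0.39). Tac1 was lower in the Sim1Het library beyond its counting interval among Nts-positive cells, and the interval among other Foxb1 cells holds 0. Whether the classes differ in this could not be tested with 1 library per genotype. Without the highest cell the ratio was -1.02, and it ranged from -1.23 with at least 5 Nts UMIs to -0.88 with at least 1. The difference was not seen at every Nts level: with 3 to 4 Nts UMIs, Tac1 was at 260 CPM in Sim1Het and 226 CPM in Control cells. The 22 Control cells with 10 or more Nts UMIs held 112 of the 179 Control UMIs, against 58 of 157 in the 22 such Sim1Het cells.

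The other markers differed less. Cartpt had a log2 ratio of -0.23 (-0.55 to 0.10) in Nts-positive Foxb1 cells and 0.61 (0.40 to 0.82) in other Foxb1 cells, Pcp4 -0.22 (-0.33 to -0.11) and -0.08 (-0.15 to -0.02), Nrp1 -0.36 (-0.61 to -0.09) and -0.11 (-0.26 to 0.03), and Bdnf 0.27 (-0.12 to 0.69) and 0.62 (0.34 to 0.92). None of these 4 reached 1.5-fold in Nts-positive Foxb1 cells.

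Npy, neuropeptide Y, had 20 UMIs (48.8 CPM) in Sim1Het and 38 (163 CPM) in Control Nts-positive Foxb1 cells, a log2 ratio of -1.71 (-2.60 to -0.92), against 190 (104.5 CPM) and 77 (62.4 CPM) in other Foxb1 cells (0.73, 0.36 to 1.15). Only 8 Sim1Het and 12 Control Nts-positive Foxb1 cells had an Npy UMI, and 1 Control cell held 12 of the 38. The ratio was -1.60 without the highest cell and -0.85 with cells of at least 1 Nts UMI. Cluster 2, which Npy leads, held 10.3% of the Sim1Het and 25.6% of the Control Nts-positive cells.

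**Figure D5:**
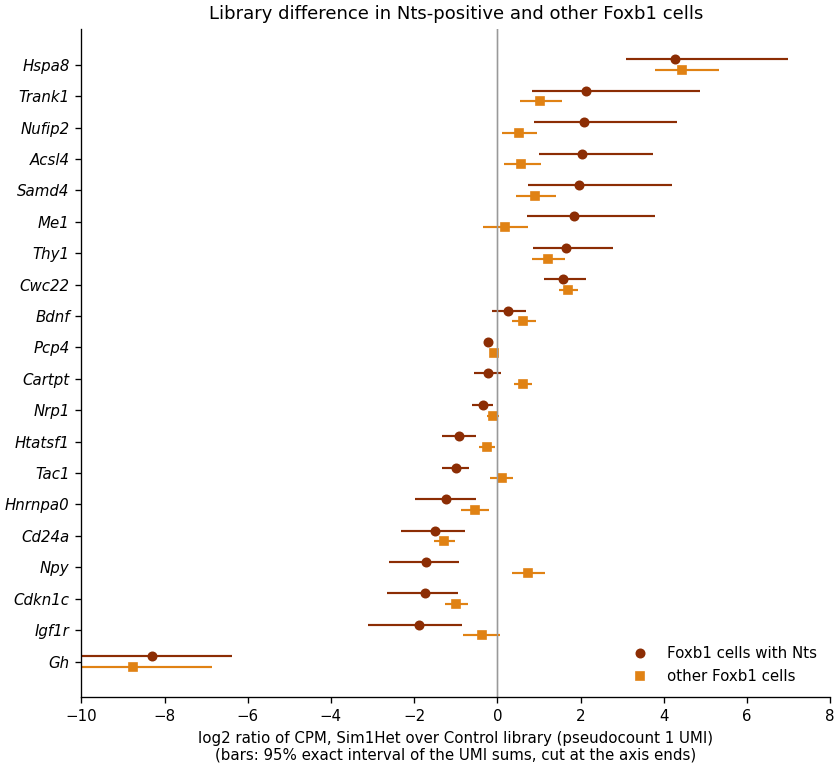
Log2 ratio of CPM, Sim1Het over Control, in Nts-positive Foxb1 cells (circles) and other Foxb1 cells (squares) for 20 named genes, with 95% exact intervals. Most genes point the same way in both classes, Tac1 is at -1.002 and 0.10, and Npy is at -1.71 and 0.73.

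The genes furthest from 0 were mostly shifted in the same direction in both classes. Hspa8, a heat shock family chaperone with near-identical pseudogenes, had 135 UMIs in Sim1Het and 3 in Control Nts-positive Foxb1 cells (330 and 12.9 CPM, log2 ratio 4.27, 3.10 to 6.97), and 538 and 16 in other Foxb1 cells. Cwc22, a splicing factor, had 225 and 42 UMIs (log2 ratio 1.58, 1.13 to 2.12), and 984 and 204 in other Foxb1 cells (1.71). Thy1, a surface glycoprotein of neurons, had 71 and 12 UMIs (1.66), and 1.21 in other Foxb1 cells. Acsl4, an acyl-CoA synthetase, had 49 and 6 UMIs (2.02, 0.99 to 3.73), against 0.58 (0.16 to 1.04) in other Foxb1 cells. The RNA-binding Nufip2 and Samd4, Trank1 and the malic enzyme Me1 were also higher, at 2.07, 1.95, 2.14 and 1.85.

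Gh had 0 UMIs in Sim1Het and 177 in Control Nts-positive Foxb1 cells, at least 104-fold lower in the Sim1Het library against 3 UMIs per library, or 28.7-fold without the highest Control cell. It was at 0 and 291 UMIs in other Foxb1 cells. As given above, Gh UMIs were also present in Control cells rich in glial genes, and their source was not tested. Cdkn1c, an imprinted inhibitor of cell division, had 19 and 37 UMIs (-1.74, against -0.99 in other Foxb1 cells), Igf1r, the IGF1 receptor, 11 and 24 (-1.87, against -0.38), and Cd24a, a surface glycoprotein, 25 and 41 (-1.51, against -1.27). The splicing-related Htatsf1 and Hnrnpa0 were lower at -0.92 and -1.23.

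Among the gene lists, the medians ranged to both sides of 0: for 9 measured neuropeptides and factors the median was -0.34 (1 higher, 2 lower), for 13 peptide-processing genes 0.31 (3 higher, 0 lower), for 24 release genes 0.20 (2 and 2) and for 14 glutamate genes 0.27 (3 and 0). Of 9 mammillary factors 1 was higher and 2 lower, with a median of -0.12. Lhx1 was at 0.36 (0.10 to 0.64) and Calb1, the calbindin gene, at 0.66 (0.28 to 1.08). Of 5 immediate early and stress genes 3 were higher, Hspa8 and Jun (30 and 6 UMIs) among them. These counts rest on few genes each and stand beside 11.8% higher and 8.74% lower over all measured genes.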

How the data were processed

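Drop-seq 3' counts of 24905 genes were used as deposited: raw UMI counts per gene and cell barcode, with no normalization by the authors that the values show. Per the submitters' processing notes, bcl2fastq, Picard, STAR 2.6.0b, Seurat 3 and the build mm10 were involved, with no role given. No source used here names the counter, the annotation or the strand setting. The merged table was used, and it held the same counts as both per-library tables.

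The gene set, lists and cell rule were chosen with earlier results of these data known. Cells with at least 300 genes were kept, which removed 22 Sim1Het and 1 Control barcodes. The highest mitochondrial share was 9.78%. UMIs were summed per library and class and tested with edgeR 4.0.16 in R 4.3.3 (TMM scaling, quasi-likelihood, library as a block, Benjamini-Hochberg adjustment), for genes with at least 30 UMIs over the 4 sums, leaving out Foxb1 and Nts. The block comes from the design, since both classes were taken from the same library. DESeq2 1.42.0 was an alternative. Each library's ratio has a 95% exact conditional binomial interval. Clusters came from 2000 variable genes, 20 components, 20 neighbours and Leiden resolution 1 (leidenalg 0.10.2, scikit-learn 1.9.0, Python 3.11.15). Cells rich in glial genes had at least 3 of 8 glial genes.

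Named genes were the 15 higher and 12 lower genes called by edgeR whose 95% interval nearest to 0, in the library where it was nearest, lay furthest from 0, and 8 each way in the second comparison and for genotype. Mitochondrial, ribosomal and haemoglobin genes, Xist, Tsix, Y-linked and clone-named genes and pseudogenes were left out, while other X-linked genes were kept. The 5 markers Tac1, Cartpt, Pcp4, Nrp1 and Bdnf were always named, with up to 4 genes per list. Gene places come from GENCODE M21, which holds 94.3% of the symbols. Alternatives varied the scaling, tool, count minimum, pseudocount, UMI thresholds and depth. Leaving out each gene's highest cell was added after seeing the data.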

Additional observations from a re-analysis of the deposited data

Results flagged for a closer look

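In 4 genes the 95% counting intervals pointed in opposite directions in 2 sets of cells. With 1 library per genotype these differences were not tested.

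Npy was lower in Nts-positive than in other Foxb1 cells in the Sim1Het library (log2 ratio -1.10) and higher in the Control library (1.39). Seen by genotype, Npy was at -1.71 (Sim1Het over Control) in Nts-positive Foxb1 cells and at 0.73 in other Foxb1 cells. It rested on 20 Sim1Het and 38 Control UMIs in the Nts-positive cells. Cluster 2, led by Npy, held 10.3% of the Sim1Het and 25.6% of the Control Nts-positive cells.

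Foxp1, a forkhead transcription factor, was at 0.92 in Nts-positive Foxb1 cells (59 Sim1Het and 17 Control UMIs, 12 of the 59 in 1 cell) and at -0.44 in other Foxb1 cells. Rprm was at -0.17 in Nts-positive Foxb1 cells and at 0.50 in other Foxb1 cells. Dbi, an acyl-CoA binding protein that is also abundant in glia, was at 1.06 in Nts-positive Foxb1 cells (43 and 11 UMIs) and at -0.35 in other Foxb1 cells, where 1 Control cell held 32 of 158 UMIs.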

How the results depend on the processing

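The 52 higher and 52 lower genes against other Foxb1 cells depended on the tool and on the library block. DESeq2 gave 3 and 1, and edgeR with no replicate block, which drops the pairing of classes within a library, gave 3 and 1. Thinned cells gave 31 and 17, at least 3 Foxb1 UMIs 24 and 18, and at least 500 genes 34 and 30. No low-count filter gave 30 higher, at least 3 Nts UMIs 33 lower, and at least 1 Foxb1 UMI 79 lower. Against Nts cells low in Foxb1, no scaling gave 28 and 30 and DESeq2 6 and 2. The cause of these changes was not tested. With 1 library left out no residual degree of freedom remains, so those values have no test. Avp then ranged from -3.28 in the Control to 0.44 in the Sim1Het library, and Gh against Nts cells low in Foxb1 was -0.31 without each gene's highest cell. The share of Nts-positive cells among Foxb1 cells was 21.4% in the Sim1Het and 18.4% in the Control library with at least 1 Nts UMI, 12.4% and 10.8% with 3, and 7.32% and 6.69% with 5. It was 13.0% in the Sim1Het library with at least 1 Foxb1 UMI, and 5.54% and 3.21% over all cells. Genes past 1.5-fold by genotype, 518 higher and 383 lower, were 435 and 458 with TMM scaling, 1343 and 1437 with at least 10 UMIs, 78 and 55 with at least 100 UMIs, 184 and 157 in thinned cells, 310 and 244 with at least 5 Nts UMIs, and 221 and 430 with a pseudocount of 5, so that lower genes outnumbered higher ones there and with TMM scaling and at least 10 UMIs. Depth limits genes with few UMIs, whose ratios have wide intervals.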
